A study of Homo sapiens with 35 samples.

Results

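The genes described here were the collagen chains, the lysyl oxidases and the collagen chaperone SERPINH1. They were chosen by symbol (COL, a number, A, a number; LOX and LOXL1 to LOXL4; SERPINH1), with readthrough and antisense symbols left out, and 48 of the 16103 genes in the bulk count table met the rule. Among them were 42 collagen chains, 5 lysyl oxidases and SERPINH1. All samples came from H1, an established human embryonic stem cell line, grown on Geltrex, a basement membrane extract, so every group is a group of this 1 line. Bulk RNA was sequenced in 30 libraries, 2 in each of 15 groups. At 6 h and 24 h unsorted cells had received BRD with CHIR, JNJ with CHIR, Activin A with CHIR (AA+CHIR), BRD alone or CHIR alone, and an untreated pair (None) was taken at 6 h; another untreated pair, at 24 h, was not analysed here. At 72 h the cells had been sorted as definitive endoderm after BRD+LoAA with CHIR followed by BRD+LoAA (BRD+LoAA), BRD with CHIR followed by BRD (BRD), JNJ with CHIR followed by JNJ (JNJ), or Activin A with CHIR followed by Activin A (Activin). CHIR is CHIR99021, which activates Wnt signalling by inhibiting the kinase GSK3, given at 3 µM on day 1, and Activin A is a TGF-β family protein given at 100 ng/ml. BRD, JNJ and LoAA are named here as in the labels, which give no dose for them. Single cells were sequenced in 3 libraries: mesoderm at 72 h after a commercial mesoderm induction medium, definitive endoderm at 72 h, and primitive streak cells at 36 h, the last pair made with Activin A and CHIR. The labels do not say that the 2 replicates of a group were separate inductions, so p-values measure the spread between these libraries, which may be technical.

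Collagen chains wind into helical trimers in the endoplasmic reticulum, where prolines and lysines are hydroxylated and SERPINH1 (HSP47) holds the finished helix on its way to the Golgi. Fibrillar collagens such as types I, V and XI pack into fibrils, type IV forms the network of basement membranes, type VI forms beaded microfilaments around cells, and the lysyl oxidases start the crosslinks that fix collagen in place. In the gastrulating embryo, cells of the primitive streak leave an epithelium that rests on a basement membrane, and definitive endoderm is among the tissues they form. By family the members were 10 fibrillar, 6 basement membrane, 5 beaded filament, 10 fibril-associated, 2 multiplexin, 4 transmembrane, 2 short-chain network and 3 other chains, with 5 lysyl oxidases and 1 chaperone.

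The 6 type IV genes lie head to head in pairs on opposite strands. In the GRCh38 annotation the start sites of COL4A6 (minus strand) and COL4A5 (plus strand) are 347 bases apart on chromosome X, those of COL4A4 and COL4A3 are 112 bases apart on chromosome 2, and the COL4A1 and COL4A2 genes overlap by 1422 bases at their starts on chromosome 13. The overlap rests on a COL4A2 start at position 110305812, which lies outside the COL4A2 window printed below. Promoter windows from RefSeq (build GRCh38.p14, 250 bases before the start to 50 after it) matched 36 of the 48 members, and the 4 windows below are shown because the COL4A5 and COL4A6 pair separated from the COL4A1 and COL4A2 pair at 72 h, as described further on. Each is written 5′ to 3′ on the strand of its gene, and capitals mark a match, on either strand, to the GC box (letters GGGCGG), to the CCAAT box or to the TATA box (letters TATAAA).
COL4A5, chrX:108439588-108439887, plus strand: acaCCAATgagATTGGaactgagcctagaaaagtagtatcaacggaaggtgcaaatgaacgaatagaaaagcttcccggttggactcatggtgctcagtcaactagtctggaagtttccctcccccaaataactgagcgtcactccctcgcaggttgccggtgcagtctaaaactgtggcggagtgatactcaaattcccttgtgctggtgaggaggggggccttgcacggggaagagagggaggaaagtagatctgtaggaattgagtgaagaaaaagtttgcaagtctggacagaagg
COL4A6, chrX:108439409-108439708, minus strand: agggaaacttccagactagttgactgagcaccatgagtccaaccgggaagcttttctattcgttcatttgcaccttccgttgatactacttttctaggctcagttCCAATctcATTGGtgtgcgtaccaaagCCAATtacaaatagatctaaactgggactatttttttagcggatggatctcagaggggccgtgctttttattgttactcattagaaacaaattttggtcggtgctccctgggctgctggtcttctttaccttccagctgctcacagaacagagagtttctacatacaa
COL4A1, chr13:110307108-110307407, minus strand: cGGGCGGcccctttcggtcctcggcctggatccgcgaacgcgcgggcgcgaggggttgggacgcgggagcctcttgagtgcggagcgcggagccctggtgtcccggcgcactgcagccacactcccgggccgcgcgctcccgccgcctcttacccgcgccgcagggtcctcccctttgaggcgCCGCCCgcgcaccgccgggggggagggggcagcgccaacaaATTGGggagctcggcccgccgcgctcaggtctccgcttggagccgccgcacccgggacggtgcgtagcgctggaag
COL4A2, chr13:110307034-110307333, plus strand: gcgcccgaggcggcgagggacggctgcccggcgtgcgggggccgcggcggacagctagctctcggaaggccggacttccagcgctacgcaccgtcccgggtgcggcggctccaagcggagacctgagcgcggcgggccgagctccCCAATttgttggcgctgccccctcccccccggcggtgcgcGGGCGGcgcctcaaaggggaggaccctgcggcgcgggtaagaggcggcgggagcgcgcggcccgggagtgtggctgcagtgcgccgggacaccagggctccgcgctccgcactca
The COL4A5 and COL4A6 windows share 121 bases of the genome, read on opposite strands, and the COL4A1 and COL4A2 windows share 226. The X-linked windows held 49.3% and 43.7% G and C with 2 and 3 CCAAT boxes and no GC box, and the chromosome 13 windows held 76.7% and 77.7% with 1 CCAAT box each and 2 and 1 GC boxes. Across members the median G and C content was 66.7%, against 58.7% for all 35116 windows of 300 bases. CCAAT on either strand was in 11 of the 36 member windows (34.61% of all windows), GGGCGG in 20 (44.95%) and TATAAA in 5 (11.53%). These are matches of letters, and no binding was measured.

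Library totals ran from 4.57 to 49.5 M (mega) counts, and a level below is in CPM (counts per M) on 1 scale over the 30 libraries, set by TMM (trimmed mean of M values). The members took 0.110 to 0.124% of counts at 6 h in the groups other than BRD alone, 0.187 to 0.256% at 24 h and 0.186 to 0.258% at 72 h, and 0.0773 to 0.0889% in BRD alone. Sample titles carry a number that starts with 33 for most 6 h libraries, 38 for most 24 h libraries and 46 for the 72 h libraries and BRD alone, and mitochondrial-like MTRNR2L transcripts took 7.58 to 13.9% of counts in the last set, against at most 1.10% elsewhere. Comparisons across these sets therefore carry this difference as well. At 24 h between 42 and 298 genes per group were read at 0 counts in one replicate and 50 or more in its partner, among them COL21A1 and COL6A6 in JNJ+CHIR.

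Levels of different genes were compared per kilobase of exon. In untreated cells at 6 h SERPINH1 led with 49.2 CPM per kb, followed by COL18A1 (29.9), the chain that releases endostatin, and COL26A1 (12.2), while COL5A2 stood at 3.66. In AA+CHIR cells at 24 h the beaded filament chains COL6A1 and COL6A2 led with 98.7 and 54.8 CPM per kb, and COL5A2 had 21.3. In Activin endoderm at 72 h COL5A2, a chain of type V fibrils, led with 123.1 ± 1.29 CPM per kb (SD, n = 2), ahead of SERPINH1 with 50.1. It took 37.4 and 36.7% of all member CPM in those libraries. In BRD endoderm SERPINH1 led with 30.0 CPM per kb and COL5A2 had 2.58, and the SERPINH1 value in JNJ and BRD+LoAA endoderm was 30.8 and 31.5. A mean of 5 CPM in at least 1 group was reached by 36 members. The 12 below it everywhere were COL11A2, COL15A1, COL17A1, COL19A1, COL20A1, COL4A3, COL5A3, COL6A5, COL6A6, COL8A1, COL8A2 and LOXL4. Over the 28 comparisons made, 9 members were never called: COL11A2, COL15A1, COL19A1, COL21A1, COL6A5, COL6A6, COL9A3, LOXL3 and LOXL4. Of these COL9A3 had the highest group mean, 25.3 CPM, and its lowest was 6.71.

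**Figure D1:**
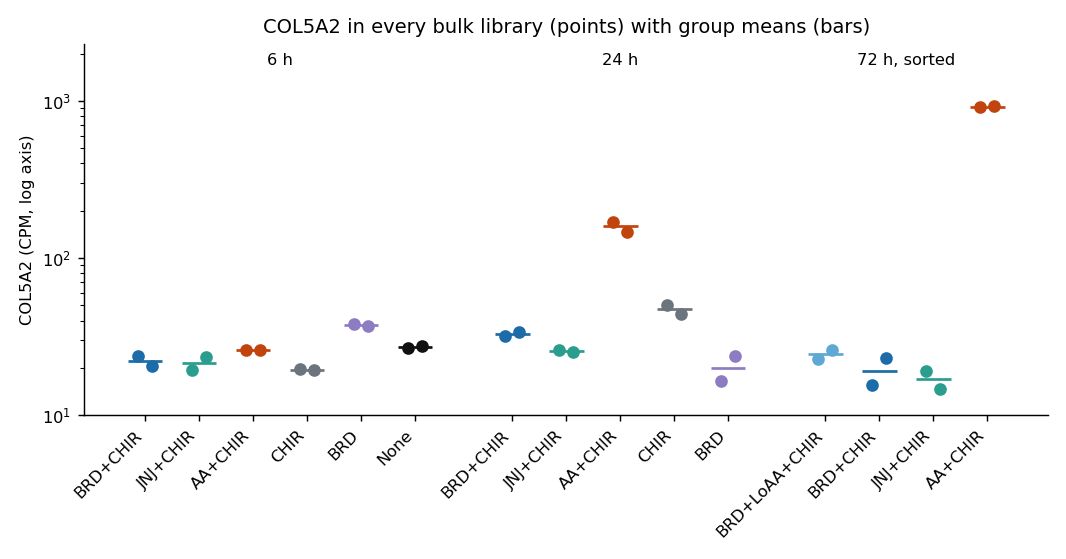
COL5A2 level (CPM, log axis) in each of the 30 bulk libraries, by group and time, with points for libraries and bars for group means. The 2 Activin libraries at 72 h lie above 900 CPM, and all others lie at or below 170.0.

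At 6 h no member passed the test in any comparison of treatments. None was called by edgeR's quasi-likelihood test (false discovery rate 0.05, Benjamini-Hochberg; every edgeR adjusted p below is of this kind, and a value with ± in parentheses is a log2 change with its SE) or by DESeq2 in any of 5 comparisons: CHIR against None, AA+CHIR, BRD+CHIR and JNJ+CHIR each against CHIR, and BRD+CHIR against JNJ+CHIR. In that order the background was 2.96, 1.49, 0, 0.0202 and 0.0202% of all genes tested, and 5, 4, 0, 1 and 4 of the 40 members tested had an unadjusted p under 0.05. Of all 14874 genes tested, 2009, 1615, 452, 703 and 815 had such a p. COL5A2 had 19.8 and 19.3 CPM with CHIR, against 26.9 and 27.6 in untreated cells, a log2 change of -0.48 ± 0.15 (SE) with edgeR adjusted p = 0.121. It had 26.1 and 25.96 CPM with AA+CHIR, and the log2 change against CHIR was 0.41 ± 0.15 (edgeR adjusted p = 0.296). The untreated and AA+CHIR libraries were both above the CHIR libraries, without overlap. Of members with at least 5 CPM in a group, 23 of 26, 22 of 25, 24 of 25, 23 of 26 and 21 of 26 had a 95% interval that lay within a 2-fold change in either direction.

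Between 6 h and 24 h COL6A1, COL6A2, COL1A2, COL5A1 and the transmembrane chain COL13A1 rose in every group that had CHIR, and SERPINH1 fell. In AA+CHIR cells 15 members rose and 5 fell of 46 tested, against a background of 20.8% of all genes higher and 21.4% lower. The counts were 14 and 8 with BRD+CHIR (18.2 and 19.2%), 14 and 5 with JNJ+CHIR (19.5 and 21.6%) and 16 and 6 with CHIR alone (18.6 and 19.3%). In these 4 arms 10 members rose in all (COL13A1, COL1A2, COL25A1, COL27A1, COL4A1, COL4A5, COL4A6, COL5A1, COL6A1 and COL6A2) and 4 fell in all (COL1A1, COL6A3, LOXL2 and SERPINH1). Of the members tested, 30.4 to 34.8% rose and 10.9 to 17.4% fell over these 4 arms. The 24 h and 6 h libraries of these arms also differ in title number series, and time and that difference cannot be told apart here. Primitive streak markers, 6 in the table, also moved between these times: they summed to 1137 to 2487 CPM over the 8 libraries at 24 h, against 48.0 to 265 over the 8 at 6 h, and their part in the changes was not tested.

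COL6A1 had 520.4 and 534 CPM at 24 h in AA+CHIR cells, against 49.4 and 56.8 at 6 h, and its log2 change was 2.57 with BRD+CHIR, 2.58 with JNJ+CHIR, 3.33 ± 0.12 (SE) with AA+CHIR and 2.86 with CHIR. Its partner COL6A2, the next gene on chromosome 21, had 299 and 291 CPM at 24 h, against 65.02 and 42.2 at 6 h, and rose by 2.17 to 2.48 on the log2 scale over the 4 arms. All 24 h libraries stood above all 6 h libraries for both chains. COL1A2, the α2 chain of type I collagen, had 215 and 237 CPM against 44.6 and 46.4 in AA+CHIR cells and rose by 1.68 to 2.33 over the arms. The other chain of type I went the other way: COL1A1 had 38.05 and 39.8 CPM at 24 h in AA+CHIR cells, against 57.4 and 59.3 at 6 h, and fell in all 4 arms by 0.45 to 0.65 on the log2 scale. COL5A1, the main α chain of type V, had 169.6 and 159.9 CPM at 24 h in AA+CHIR cells, against 16.03 and 11.5 at 6 h, and rose by 1.32 to 3.60 over the arms. COL13A1 had 63.1 and 76.9 CPM at 24 h, against 1.33 and 1.85 at 6 h, and rose by 2.60 to 5.47. For both genes the 24 h libraries were all above the 6 h libraries, and the AA+CHIR arm gave the upper end of the range.

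SERPINH1 had 186 and 157 CPM at 24 h with AA+CHIR, against 326 and 294 at 6 h, and 158 and 149.6 with CHIR, against 316 and 362. It fell by 0.83 to 1.20 on the log2 scale over the 4 arms, with no overlap between times. COL5A2 rose in 3 of the 4 arms: its log2 change was 0.56 ± 0.16 with BRD+CHIR, 0.26 ± 0.16 with JNJ+CHIR (edgeR adjusted p = 0.225), 2.63 ± 0.17 with AA+CHIR and 1.29 ± 0.16 with CHIR. The BRD+CHIR call was lost without the 6 h BRD+CHIR replicate 2 (edgeR adjusted p = 0.095). When each library was left out in turn, COL13A1, COL1A2, COL27A1, COL4A1, COL5A1, COL6A1, COL6A2 and SERPINH1 kept their calls in all 4 arms. COL1A1 lost its call with CHIR without 6 h CHIR replicate 1 or 2 or 24 h CHIR replicate 1 (edgeR adjusted p up to 0.11). The other shared calls were each lost in at least 1 arm when 1 library was left out, with edgeR adjusted p up to 0.365 for COL25A1, 0.166 for COL4A5, 0.201 for COL4A6, 0.145 for COL6A3 and 0.282 for LOXL2.

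**Figure D2:**
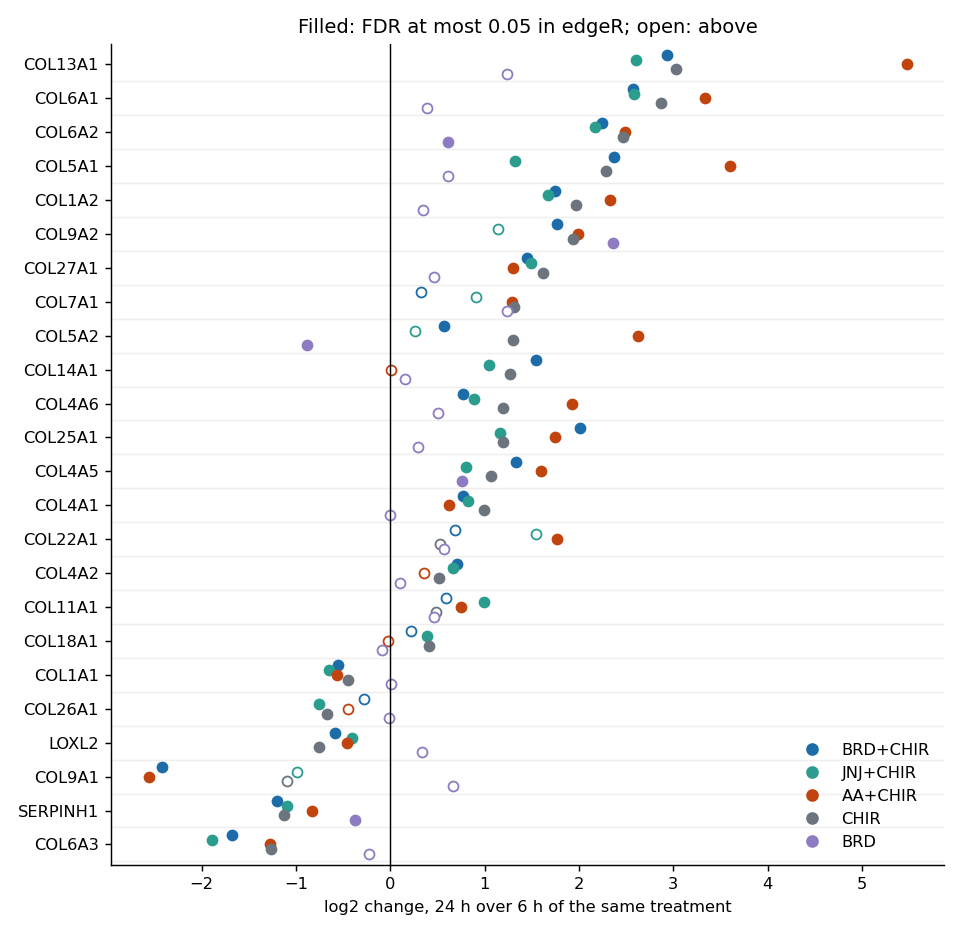
Log2 change, 24 h over 6 h, in each treatment arm for members called in at least 1 arm with at least 5 CPM in a group and more than 3 counts in every group; filled points passed the false discovery rate of 0.05. COL6A1 lies at 2.57 to 3.33 in the arms with CHIR, and SERPINH1 lies below 0 in all arms.

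At 24 h Activin A added to CHIR raised 4 members and lowered 1 of 45 tested, against a background of 1.24% of all genes higher and 1.62% lower. The median log2 change was 0.16 over members tested and 0.00 over all genes. COL13A1 had 63.1 and 76.9 CPM with AA+CHIR, against 9.29 and 5.30 with CHIR, a log2 change of 3.26 ± 0.32 (SE; edgeR adjusted p = 1.12e-05). COL5A2 had 170.0 and 148 CPM with AA+CHIR, against 50.4 and 44.3 with CHIR (1.75 ± 0.18; edgeR adjusted p = 2.56e-05). COL5A1, its partner in type V trimers, had 169.6 and 159.9 CPM, against 63.1 and 50.3 (1.54 ± 0.17; edgeR adjusted p = 3.44e-05). Both AA+CHIR libraries stood above both CHIR libraries for all 3 genes. COL6A1 had 520.4 and 534 CPM, against 333 and 315 (0.70 ± 0.12; edgeR adjusted p = 0.00271). COL14A1, a chain that binds to the surface of fibrils, was the member that fell, to 16.6 and 20.3 CPM with AA+CHIR, against 38.2 and 44.4 with CHIR (-1.16 ± 0.21; edgeR adjusted p = 0.00411). Without CHIR replicate 2 the calls of COL6A1 and COL14A1 were lost (edgeR adjusted p = 0.066 and 0.0618), and that of COL14A1 also without AA+CHIR replicate 1. In these bulk samples a change in the number of cells that express a gene and a change in RNA per cell cannot be told apart. Over the same libraries 6 definitive endoderm markers summed to 1358 to 1503 CPM with AA+CHIR, against 172 to 209 with CHIR, with CXCR4 at 0 counts in both groups and SOX17 at 0 with CHIR. CER1 and GATA6 carried this sum, CER1 with 1151 and 1312 CPM, against 101 and 84.1 with CHIR, and FOXA2 went the other way, with 18.3 and 17.7 CPM, against 80.3 and 57.8 with CHIR. Primitive streak markers, 6 of 6 detected, summed to 2375 to 2487 CPM with AA+CHIR, against 1204 to 1281 with CHIR. Of these 6, FGF8 went the other way, with 16.4 and 18.3 CPM, against 30.4 and 30.5 with CHIR. Mesoderm markers, 4 in the table, summed to 119 to 133 CPM with AA+CHIR, against 4.44 to 4.92 with CHIR, where MESP1 and HAND1 were at 0 counts; PDGFRA made up most of the AA+CHIR sum. The part of these 3 marker lists in the result was not tested.

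The difference that Activin A made was larger at 24 h than at 6 h for COL5A2 and COL5A1. The log2 change at 24 h minus that at 6 h was 1.33 ± 0.23 for COL5A2 (edgeR adjusted p = 0.0019), 1.32 ± 0.31 for COL5A1 (0.025) and -1.26 ± 0.31 for COL14A1 (0.0395), with a background of 1.9% of genes. COL5A2 kept this call when each of the 8 libraries was left out. COL5A1 lost it in 6 of 8 such fits (without 6 h AA+CHIR replicate 2, 24 h AA+CHIR replicate 1 or 2, 6 h CHIR replicate 1 or 2, or 24 h CHIR replicate 2; highest edgeR adjusted p = 0.149). COL14A1 lost it in 5 of 8 (without 6 h AA+CHIR replicate 1 or 2, 24 h AA+CHIR replicate 1, or replicate 2 of CHIR at 6 h or 24 h; highest edgeR adjusted p = 0.238).

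With BRD or JNJ in place of Activin A at 24 h, COL5A2, COL5A1, COL13A1 and COL6A1 were lower and COL14A1 was higher than with AA+CHIR. COL5A2 had 31.95 and 33.7 CPM with BRD+CHIR, against 170.0 and 148 with AA+CHIR (-2.28 ± 0.19 on the log2 scale; edgeR adjusted p = 1.62e-06). It had 26.1 and 25.2 CPM with JNJ+CHIR (-2.63 ± 0.19 against AA+CHIR; edgeR adjusted p = 3.1e-07). Every library of both compounds was below every AA+CHIR library. COL5A1 had 54.2 and 54.4 CPM with BRD+CHIR and 41.1 and 33.5 with JNJ+CHIR, and its log2 changes against AA+CHIR were -1.60 ± 0.17 and -2.14 ± 0.17. COL13A1 had 8.56 and 9.93 CPM with BRD+CHIR and 13.1 and 10.1 with JNJ+CHIR (log2 changes -2.92 ± 0.31 and -2.59 ± 0.31). COL6A1 had 270.1 and 302 CPM and 275 and 269 CPM (-0.88 ± 0.12 and -0.95 ± 0.12). These 3 genes passed the edgeR test in both comparisons, without overlap between groups. COL14A1 was higher than with AA+CHIR, at 41.5 and 42.5 CPM with BRD+CHIR and 46.5 and 51.7 with JNJ+CHIR (1.19 ± 0.21 and 1.41 ± 0.21); the BRD+CHIR call was lost without AA+CHIR replicate 1 (edgeR adjusted p = 0.0563). In all 5 members passed with BRD+CHIR (background 2.75%) and 7 with JNJ+CHIR (4.67%). The other two, with JNJ+CHIR, were COL6A2 (-0.48 ± 0.12) and COL1A2 (-0.46 ± 0.12), and both calls were lost when any 1 of the 4 libraries was left out (edgeR adjusted p up to 0.158 and 0.249). These comparisons share the AA+CHIR libraries. Marker sums were also lower with the compounds: mesoderm markers reached 5.28 to 8.91 CPM with BRD+CHIR and 5.31 to 8.80 with JNJ+CHIR, against 119 to 133 with AA+CHIR, primitive streak markers 1354 to 1364 and 1137 to 1163, against 2375 to 2487, and definitive endoderm markers 142 to 178 and 105 to 132, against 1358 to 1503. In the endoderm list FOXA2 went the other way. It had 66.9 and 70.4 CPM with BRD+CHIR and 77.5 and 58.8 with JNJ+CHIR, against 18.3 and 17.7 with AA+CHIR. In the streak list FGF8 was higher with BRD+CHIR, with 22.8 and 21.8 CPM, against 16.4 and 18.3 with AA+CHIR. With JNJ+CHIR it had 16.1 and 14.9 CPM. The part of these markers in the result was not tested.

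Against CHIR alone at 24 h, no member was called by edgeR for either compound (background 0% for BRD+CHIR and 0.154% for JNJ+CHIR). At an unadjusted p under 0.05 there were 2 of 45 members for BRD+CHIR and 5 for JNJ+CHIR, and DESeq2 called 0 and 1. Of all 15586 genes tested, 738 and 1382 had an unadjusted p under 0.05. COL5A2 had 31.95 and 33.7 CPM with BRD+CHIR, against 50.4 and 44.3 with CHIR, a log2 change of -0.53 ± 0.18 (edgeR adjusted p = 0.961). With JNJ+CHIR its 26.1 and 25.2 CPM gave a log2 change of -0.89 (95% interval -1.27 to -0.50) with edgeR adjusted p = 0.0791. DESeq2 gave an adjusted p of 0.00427 for it, and edgeR fitted on all 30 libraries gave 0.00197. All libraries of both compounds were below both CHIR libraries. Between BRD+CHIR and JNJ+CHIR no member was called by edgeR (background 0.18%) and DESeq2 called 1. An unadjusted p under 0.05 was found for 5 of 45 members and for 1281 of all 15586 genes tested. COL5A2 differed by 0.35 on the log2 scale (95% interval -0.03 to 0.74).

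**Figure D3:**
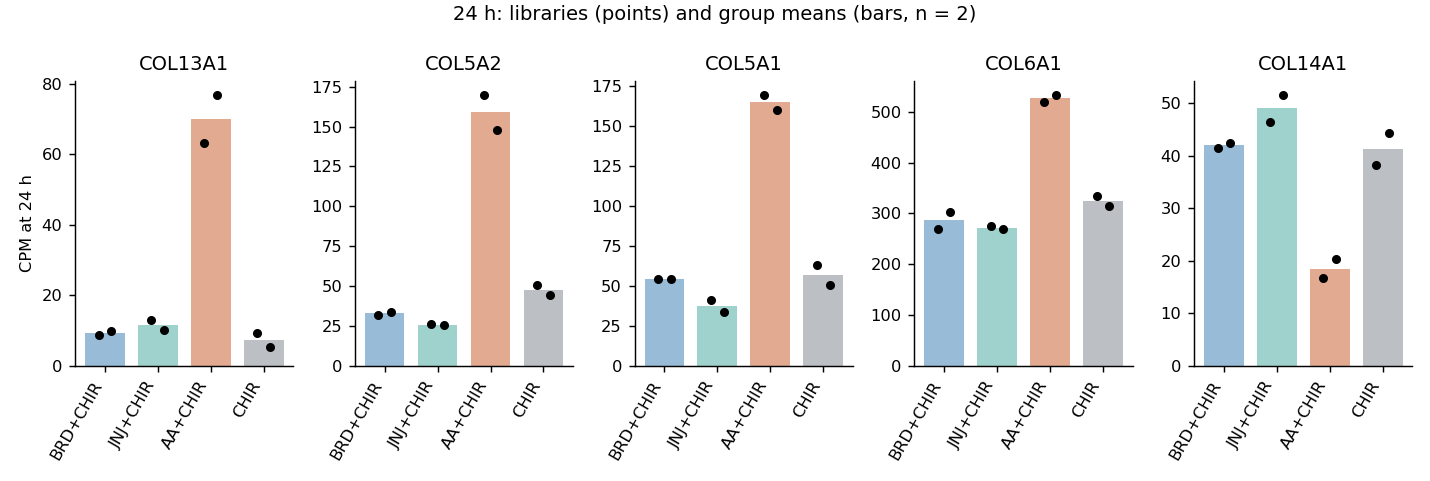
Levels (CPM) of the 5 members that differed between AA+CHIR and CHIR at 24 h, in BRD+CHIR, JNJ+CHIR, AA+CHIR and CHIR, with bars for means of 2 libraries and points for libraries. COL13A1, COL5A2, COL5A1 and COL6A1 are highest with AA+CHIR and COL14A1 is lowest there.

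With CHIR present, BRD-treated cells at 24 h had higher levels of several chains than with BRD alone. They were COL6A1 and COL6A2 of type VI, COL1A1 and COL1A2 of type I, and COL5A1 and COL5A2 of type V, among others. COL6A1 had 270.1 and 302 CPM with BRD+CHIR, against 22.5 and 30.3 with BRD (3.40 ± 0.14; edgeR adjusted p = 1.48e-11). COL6A2 had 239.6 and 202 CPM, against 23.7 and 29.04 with BRD (3.04 ± 0.14). COL1A2 had 167 and 162 CPM, against 25.6 and 30.6 (2.53 ± 0.13). For all 3 chains the groups lay far apart. COL5A1 had 54.2 and 54.4 CPM, against 8.27 and 8.46 (2.69 ± 0.19). COL5A2 had 31.95 and 33.7 CPM, against 16.5 and 23.7 (0.67 ± 0.19; edgeR adjusted p = 0.00979). Its call was lost without BRD+CHIR replicate 2 or BRD replicate 1 (edgeR adjusted p up to 0.127). Also higher with BRD+CHIR were COL4A1 (1.29 on the log2 scale) and COL4A2 (1.28) of the basement membrane, COL18A1 (1.00), COL27A1 (1.75), COL1A1 (1.05), COL13A1 (3.66), COL14A1 (1.86) and COL9A2 (2.36). Lower were SERPINH1 (-0.51) and LOXL2 (-0.72), with COL12A1, which was below 5 CPM in both groups. The call of COL9A2 was lost without BRD replicate 2 and that of LOXL2 without replicate 2 of either group (edgeR adjusted p up to 0.0903 and 0.114). In all 13 members were higher and 3 lower of 45 tested, against a background of 19.8% of genes higher and 15.7% lower. Markers differed as well: primitive streak markers, 6 in the table, summed to 1354 to 1364 CPM with BRD+CHIR, against 1.49 to 1.68 with BRD, definitive endoderm markers to 142 to 178, against 1.77 to 2.60, and pluripotency markers to 3317 to 3378, against 4647 to 4814. The pluripotency list was split. POU5F1 (848 and 864 CPM, against 539 and 513) and NANOG (139 and 162, against 81.0 and 86.8) were higher with BRD+CHIR. SOX2, LIN28A and TDGF1 were lower, and DNMT3B had 517 and 548 CPM, against 459 and 516. The part of these markers in the result was not tested. The groups belong to different title number series, so CHIR and that difference cannot be told apart.

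Within BRD alone both times belong to 1 title number series, and 3 members rose and 2 fell of 46 tested (background 3.91% higher and 9.01% lower). COL5A2 fell to 16.5 and 23.7 CPM at 24 h, against 38.1 and 36.8 at 6 h (-0.88 ± 0.17; edgeR adjusted p = 0.000852), and kept its call in each fit with 1 library left out. SERPINH1 had 201 and 217 CPM, against 272 and 262 at 6 h (-0.38 ± 0.10; edgeR adjusted p = 0.0137). COL6A2 had 23.7 and 29.04 CPM, against 18.6 and 16.1 at 6 h (0.61 ± 0.17; edgeR adjusted p = 0.0186). COL4A5 had 38.6 and 52.2 CPM, against 27.03 and 26.3 at 6 h (0.76 ± 0.23; edgeR adjusted p = 0.0316). The groups did not overlap for any of the 4, and COL9A2, below 5 CPM, also rose. The SERPINH1, COL6A2 and COL4A5 calls were lost without 6 h BRD replicate 1 or 2, SERPINH1 also without 24 h BRD replicate 1 and the other two also without 24 h BRD replicate 2 (edgeR adjusted p up to 0.107, 0.315 and 0.372). Without either 6 h BRD library 1 member remained called, and without 24 h BRD replicate 2 or 1 there were 3 and 6. The test of whether the change with time differed between BRD+CHIR and BRD was added after the data had been seen. It called COL6A1 (2.19 ± 0.17), COL5A1 (1.76 ± 0.34), COL6A2 (1.63 ± 0.23), COL5A2 (1.45 ± 0.23) and COL1A2 (1.399 ± 0.17) upward and SERPINH1 (-0.82 ± 0.14) downward, among 11 members (background 22.5%).

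In sorted endoderm at 72 h COL5A2 gave the widest gap among the members. It had 22.8 and 26.2 CPM in BRD+LoAA endoderm, 15.5 and 23.01 in BRD, 19.2 and 14.7 in JNJ and 911 and 924 in Activin endoderm. Against Activin the log2 change was -5.23 ± 0.20 for BRD+LoAA (edgeR adjusted p = 7.75e-09), -5.57 ± 0.20 for BRD (4.21e-09) and -5.78 ± 0.20 for JNJ (5.26e-09). No compound library came near the Activin libraries, and the calls held in each fit with 1 library left out. Its partner COL5A1 was not called: it had 110.3 ± 5.12 CPM in BRD+LoAA, 118 ± 6.63 in BRD, 119 ± 12.1 in JNJ and 99.8 ± 13.4 in Activin endoderm (SD, n = 2 each). The 3 comparisons share the Activin libraries. Of 39 members tested, 11 rose and 5 fell with BRD+LoAA (background 8.86% higher and 10.5% lower), 13 rose and 3 fell with BRD (9.71 and 11.6%), and 13 rose and 6 fell with JNJ (8.57 and 9.92%). The median log2 change over members was 0.531, 0.877 and 0.929, and over all genes 0.019, 0.007 and 0.006. In all 3 comparisons 11 members rose (COL11A1, COL14A1, COL17A1, COL18A1, COL1A1, COL1A2, COL4A5, COL4A6, COL9A2, LOX and LOXL1) and 3 fell (COL5A2, COL6A1 and SERPINH1).

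The basement membrane chains split by gene pair. COL4A6 had 161 and 143 CPM in BRD+LoAA endoderm, 183 and 167 in BRD and 168 and 145 in JNJ, against 30.3 and 39.6 in Activin endoderm. Its log2 change was 2.14 ± 0.17, 2.32 ± 0.17 and 2.16 ± 0.17 in the same order (edgeR adjusted p = 2.1e-06, 1e-06 and 1.95e-06). COL4A5 had 134 and 163 CPM in BRD+LoAA, 178 and 131 in BRD and 164 and 128 in JNJ, against 55.01 and 47.5 in Activin endoderm (log2 changes 1.53 ± 0.19, 1.57 ± 0.19 and 1.49 ± 0.19; edgeR adjusted p = 0.000115, 8.01e-05 and 0.000138). All 6 compound libraries were above both Activin libraries for these X-linked neighbours, which encode chains of the same trimers and whose start regions are printed above. The pair on chromosome 13 was not called: COL4A1 had 210.2 ± 15.4 CPM in BRD+LoAA, 206 ± 4.03 in BRD, 183 ± 19.6 in JNJ and 188 ± 3.92 in Activin endoderm. COL4A2 had 125 ± 3.06, 128 ± 4.80, 109 ± 13.5 and 119 ± 4.58 CPM in the same order. The 95% interval of the BRD change against Activin was -0.16 to 0.40 on the log2 scale for COL4A1 and -0.19 to 0.38 for COL4A2. COL4A4 of the chromosome 2 pair had 4.46 ± 2.69, 8.03 ± 1.73, 7.42 ± 1.84 and 3.12 ± 1.10 CPM and was not called.

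COL18A1, a basement membrane multiplexin, had 152 and 157 CPM in BRD+LoAA endoderm, 164 and 154 in BRD and 151 and 146 in JNJ, against 67.4 and 75.2 in Activin endoderm (log2 changes 1.12 ± 0.13, 1.15 ± 0.13 and 1.05 ± 0.13). Its exons overlap exons of SLC19A1 on the opposite strand, as those of COL16A1, COL4A2, COL4A3, COL9A1 and COL9A3 overlap other genes, and reads of the partners cannot be told apart unless counting used strand. COL1A1 had 108 and 100.1 CPM in BRD+LoAA, 142 and 163 in BRD and 165 and 121 in JNJ, against 61.2 and 60.9 in Activin endoderm (0.77 ± 0.16, 1.31 ± 0.16 and 1.21 ± 0.16). COL1A2 had 47.05 and 54.5 CPM in BRD+LoAA, 62.5 and 78.3 in BRD and 67.8 and 52.99 in JNJ, against 21.5 and 28.6 in Activin endoderm (1.03 ± 0.20, 1.49 ± 0.20 and 1.27 ± 0.20). All these changes passed the edgeR test, with every compound library above the Activin libraries, and thus both type I chains were higher while COL5A2, which joins fibrils of type I, was lower. The COL1A2 call for BRD+LoAA was lost without Activin replicate 1 (edgeR adjusted p = 0.057).

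COL11A1, a minor fibrillar chain, had 32.9 and 26.2 CPM in BRD+LoAA endoderm, 30.9 and 25.6 in BRD and 33.1 and 23.7 in JNJ, against 13.9 and 7.03 in Activin endoderm (1.46 ± 0.30, 1.38 ± 0.29 and 1.39 ± 0.30). COL9A2, a chain of fibril-associated type IX, had 20.6 and 13.99 CPM in BRD+LoAA, 23.6 and 17.7 in BRD and 12.2 and 19.3 in JNJ, against 3.36 and 4.48 in Activin endoderm (2.17 ± 0.35, 2.40 ± 0.34 and 2.02 ± 0.35). All 6 compound libraries exceeded both Activin libraries for the 2 genes, and all changes passed the edgeR test. COL14A1 had 3.32 and 8.89 CPM in BRD, against 0.672 and 0 in Activin endoderm (5 and 0 counts), and was below 5 CPM on average with BRD+LoAA and JNJ, where it also passed the test. COL17A1, the hemidesmosomal transmembrane chain, had 0 counts in Activin endoderm and was at least 7.0-fold higher in BRD+LoAA, 18.16-fold in BRD and 12.55-fold in JNJ, against a floor of 3 counts over the Activin group. COL16A1 was called with BRD (2.09 ± 0.51; mean 6.67 ± 1.59 CPM, against 1.51 ± 0.332 in Activin endoderm). COL24A1 was called with JNJ (1.97 ± 0.57; mean 5.46 ± 1.30 CPM, against 1.34 ± 0.388). The COL16A1 call was lost without either Activin library or BRD replicate 2 (edgeR adjusted p up to 0.0717), and that of COL24A1 without any 1 of the 4 libraries (up to 0.151).

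Among the lysyl oxidases LOX had 8.27 and 11.6 CPM in BRD+LoAA endoderm, 10.6 and 10.96 in BRD and 9.77 and 8.59 in JNJ, against 0.269 and 1.70 in Activin endoderm, where the values rest on 2 and 8 counts. Its log2 change was 3.49 ± 0.57, 3.60 ± 0.56 and 3.36 ± 0.57 (edgeR adjusted p = 0.000841, 0.000541 and 0.00108). LOXL1, which is known for crosslinking elastic fibres, had 11.4 and 11.6 CPM in BRD+LoAA, 9.18 and 9.98 in BRD and 5.06 and 9.50 in JNJ, against 3.09 and 2.77 in Activin endoderm (1.96 ± 0.39, 1.68 ± 0.38 and 1.30 ± 0.39). Both enzymes were higher in every compound library than in the Activin libraries. The LOXL1 call was lost without Activin replicate 1 for BRD (edgeR adjusted p = 0.0511) and without either Activin library or JNJ replicate 2 for JNJ (up to 0.306). LOXL2, which crosslinks type IV collagen, rose with BRD to 47.95 and 56.7 CPM and with JNJ to 43.1 and 43.4, against 26.2 and 30.9 in Activin endoderm (0.87 ± 0.17 and 0.59 ± 0.18), and had 40.4 and 32.5 CPM with BRD+LoAA (edgeR adjusted p = 0.179). The JNJ call was lost without any 1 library (edgeR adjusted p up to 0.223). Exons of LOX, LOXL1, LOXL2 and LOXL3 overlap exons of genes on the opposite strand (SRFBP1 for LOX, LOXL1-AS1 for LOXL1), and whether reads were counted by strand is not given in the sources used here.

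SERPINH1 was lower in endoderm made with the compounds, with 194 and 201 CPM in BRD+LoAA, 188 and 189 in BRD and 177 and 209.9 in JNJ, against 298 and 332 in Activin endoderm (-0.67 ± 0.13, -0.75 ± 0.13 and -0.72 ± 0.13; edgeR adjusted p = 0.00251, 0.000961 and 0.00153). COL6A1 had 109.7 and 95.96 CPM in BRD+LoAA, 119 and 135 in BRD and 116 and 103 in JNJ, against 172 and 173 in Activin endoderm (-0.74 ± 0.13, -0.45 ± 0.13 and -0.67 ± 0.13). The groups did not overlap for either gene. COL6A2 had 115 and 111 CPM in BRD+LoAA and 129 and 124 in JNJ, against 175 and 178 in Activin endoderm (-0.64 ± 0.12 and -0.49 ± 0.12), and 134 and 151 in BRD, where it was not called. The COL6A1 call for BRD was lost without either Activin library or BRD replicate 1 (edgeR adjusted p up to 0.172), and the COL6A2 call for JNJ without either Activin library or JNJ replicate 2 (up to 0.103). COL27A1 was lower in BRD+LoAA (-0.92) and JNJ (-0.84) and COL2A1, the cartilage collagen, in JNJ (-1.52). The COL27A1 calls were lost without Activin replicate 1 (edgeR adjusted p = 0.0937 for BRD+LoAA) and, for JNJ, also without JNJ replicate 2 (up to 0.13); the COL2A1 call was lost without Activin replicate 2 or JNJ replicate 1 (up to 0.0892). When each library was left out in turn, COL11A1, COL18A1, COL1A1, COL4A5, COL4A6, COL9A2, LOX, COL5A2 and SERPINH1 kept their calls for all 3 compounds.

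**Figure D4:**
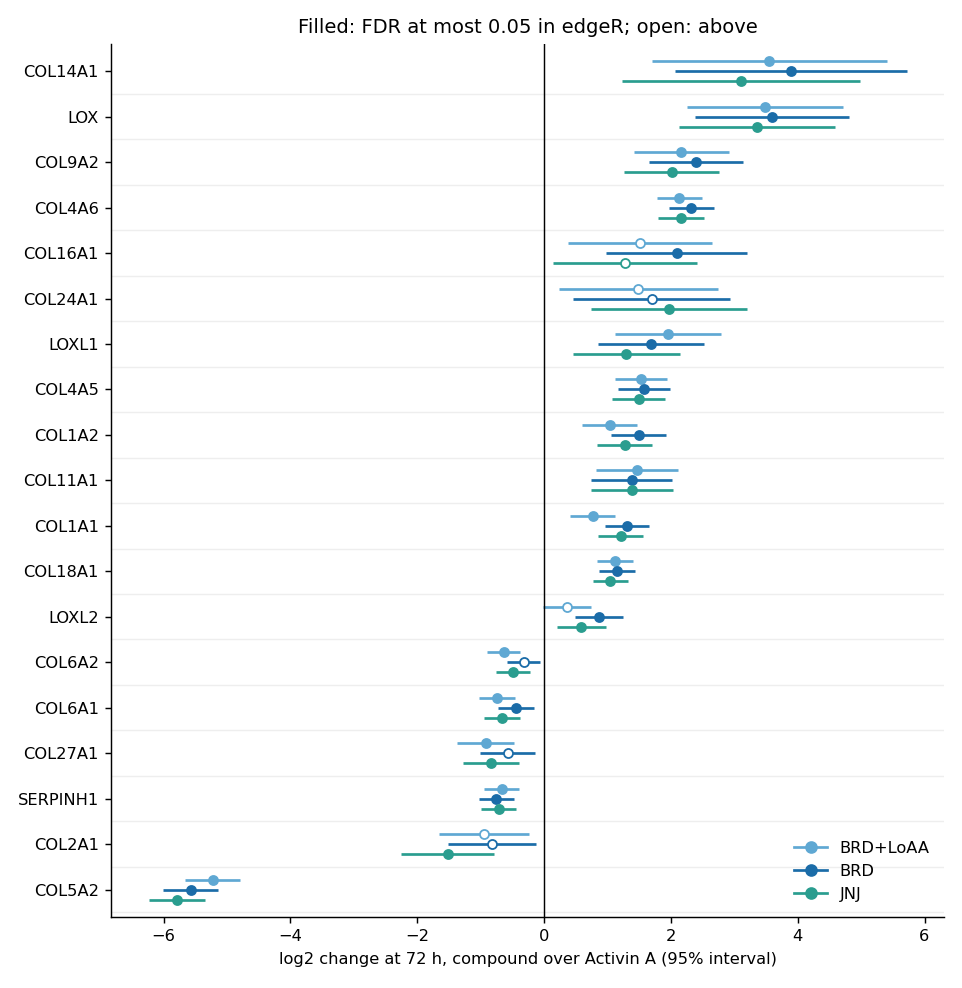
Log2 change at 72 h, BRD+LoAA, BRD and JNJ endoderm each over Activin endoderm, with 95% intervals, for members called in at least 1 of the 3 comparisons (COL17A1, with 0 counts in Activin endoderm, is left out). COL5A2 lies between -5.78 and -5.23, and COL4A6 between 2.14 and 2.32.

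The sorted groups also differed in markers. The 6 definitive endoderm markers were all detected and summed to 632 to 796 CPM over the compound libraries, against 4741 to 5348 in Activin endoderm, of which CER1 made up most. The list did not move as 1: CER1, GATA6 and SOX17 were lower in all 3 comparisons, SOX17 with 219 to 258 CPM, against 385 to 398, and FOXA2 was higher, with 50.7 to 59.98 CPM, against 16.7 and 17.7 in Activin endoderm. HHEX had 67.6 to 104 CPM, against 59.9 and 66.7, and CXCR4 had 78.9 to 134 CPM, against 113 and 151; HHEX passed the test only with JNJ and CXCR4 only with BRD+LoAA. Trophoblast or amnion markers, 5 in the table, summed to 142 to 185 CPM, against 34.3 to 40.3 in Activin endoderm, and GATA3 accounted for most of the sum in compound endoderm, with KRT7 and TFAP2A near 0. ISL1 was also higher, with 18.3 to 27.1 CPM, against 0 to 2.56. GABRP went the other way, with 8.33 to 13.99 CPM, against 24.3 to 35.8, and made up most of the sum in Activin endoderm. Fibroblast or stromal markers, 5 in the table, summed to 29.8 to 49.3 CPM, against 30.9 to 33.5. Pluripotency markers, 6 in the table, summed to 3263 to 4073 CPM, against 3492 to 3521. That list was split. SOX2 (16.5 to 27.1 CPM, against 1.07 and 1.88), POU5F1 (113 to 170, against 57.6 and 58.2) and NANOG (17.4 to 21.4, against 12.4 and 12.8) were higher in every compound library. DNMT3B (130 to 177, against 190 and 203) was lower in every compound library, and LIN28A and TDGF1 overlapped. The part of these markers in the collagen differences was not tested.

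Between the groups made with compounds no member was called at 72 h. For BRD+LoAA against BRD edgeR called 0 members (background 0%) and DESeq2 called 0. An unadjusted p under 0.05 was found for 7 of 39 members and for 740 of all 13889 genes tested. COL5A2 differed by 0.34 on the log2 scale (95% interval -0.08 to 0.77) and COL1A1 by -0.54 (-0.88 to -0.20), with edgeR adjusted p = 0.916 for COL1A1. For BRD against JNJ edgeR called 0 (background 0%) and DESeq2 called 0, and COL5A2 differed by 0.21 (-0.23 to 0.65). An unadjusted p under 0.05 was found for 0 members and for 390 of all 13889 genes tested. In both comparisons 20 members had an interval within a 2-fold change, of 28 and 29 members with at least 5 CPM in a group.

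From 24 h to 72 h COL5A2 rose with Activin A and fell with the compounds, while other members moved the same way in all 3 arms. With BRD 16 members rose and 7 fell of 47 tested (background 18.4% higher and 21.2% lower), with JNJ 12 rose and 7 fell (19.4 and 20.6%), and with Activin A 8 rose and 15 fell (19.6 and 21.3%). COL5A2 rose with Activin A (2.54 ± 0.17) to a mean of 918 ± 9.59 CPM at 72 h, against 159 ± 15.9 at 24 h, and fell with BRD (-0.77 ± 0.19) to 19.3 ± 5.30, against 32.8 ± 1.21. With JNJ it fell by 0.61 on the log2 scale. The BRD call was lost without 72 h BRD replicate 1 (edgeR adjusted p = 0.0676), and the JNJ call without 24 h JNJ+CHIR replicate 1 or 72 h JNJ replicate 2 (up to 0.195). COL4A6 had 175 ± 10.97 CPM at 72 h with BRD, against 23.1 ± 0.443 at 24 h (2.91 ± 0.23), and 34.9 ± 6.63 with Activin A, against 33.5 ± 3.96 (edgeR adjusted p = 0.861). COL1A2 had 70.4 ± 11.2 CPM with BRD, against 164 ± 3.36 at 24 h (-1.23 ± 0.16), and 25.04 ± 4.98 with Activin A, against 226 ± 15.6 (-3.18 ± 0.18). In all 3 arms COL1A1, COL23A1, COL4A1, COL4A3, COL4A4 and SERPINH1 rose and COL14A1, COL18A1, COL1A2, COL27A1, COL6A1 and COL6A2 fell. Of these calls SERPINH1 lost its own with BRD without any 1 library (edgeR adjusted p up to 0.129) and with JNJ without 24 h JNJ+CHIR replicate 1 or 72 h JNJ replicate 2 (up to 0.146), COL4A4 with BRD without 24 h BRD+CHIR replicate 1 or 72 h BRD replicate 2 (up to 0.0695), and COL27A1 with Activin A without 72 h Activin replicate 2 (0.0621). COL4A3 was below 5 CPM in every group, COL4A4 at 72 h with Activin A, and COL14A1 at 72 h with Activin A and JNJ. The COL4A3 calls rest on 6 (Activin A), 27 (BRD) and 48 (JNJ) counts at 72 h, against 0 at 24 h. Calls with 1 library left out are not given here for COL4A3 or, with Activin A, for COL4A4. Sorting and title number series differ between the times as well, and these cannot be told apart from time.

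Whether the BRD to Activin A difference changed between 24 h and 72 h was tested after the data had been seen. It did for 11 members (background 7.23%). The difference at 72 h minus that at 24 h was -3.31 ± 0.25 for COL5A2 (edgeR adjusted p = 6e-08), 2.84 ± 0.32 for COL4A6 (1.03e-05), 1.82 ± 0.21 for COL5A1 (1.3e-05) and 1.95 ± 0.23 for COL1A2 (1.71e-05). COL5A2 and COL5A1, both chains of type V, had differences of opposite sign. COL5A1 and COL13A1 (2.51 ± 0.42) were lower with BRD+CHIR than with AA+CHIR at 24 h and were not called between BRD and Activin endoderm at 72 h (log2 changes 0.23 ± 0.14 and -0.40 ± 0.27; edgeR adjusted p = 0.279 and 0.329). The same test was not made for JNJ.

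Other genes of collagen biosynthesis and turnover were described from a list of 58 genes in the table. At 24 h 5 of 56 tested rose and 0 fell with AA+CHIR against CHIR (edgeR; background 1.24% higher and 1.62% lower). PLOD2, the lysyl hydroxylase of collagen telopeptides, had 189 and 184 CPM, against 84.1 and 87.6 with CHIR (1.12 ± 0.14; edgeR adjusted p = 0.000175). FBN2 (fibrillin-2) had 362 and 368 CPM, against 191 and 153 (1.09 ± 0.14), and P3H2, a prolyl 3-hydroxylase, 304 and 309 CPM, against 188 and 164 (0.80 ± 0.12). The others were SEC24D (1.02 ± 0.20), which acts in collagen export, and MMP14 (0.75 ± 0.17), a membrane collagenase. At 6 h SEC24D was instead lower with AA+CHIR, with 73.2 and 72.2 CPM, against 102 and 98.6 with CHIR (-0.47 ± 0.09; edgeR adjusted p = 0.0139), and it was the 1 pathway gene called in that comparison (background 1.49%). JNJ+CHIR also raised PLOD2, to 180.5 and 232 CPM (1.26 ± 0.14 against CHIR; edgeR adjusted p = 0.000391), and P4HA1, a prolyl 4-hydroxylase, to 152 and 159 CPM, against 78.2 and 70.4 (1.07 ± 0.19; edgeR adjusted p = 0.0287). With BRD+CHIR they had 99.6 and 81.5 and 81.9 and 57.5 CPM, and both were lower than with JNJ+CHIR (-1.19 ± 0.14 and -1.15 ± 0.19; edgeR adjusted p = 0.00127 and 0.0167). At 6 h 3 pathway genes of 56 tested rose and 1 fell with CHIR against None (background 2.96% in either direction): P3H2 (0.77), SEC24D (0.39) and P4HA1 (0.56) upward and MMP15 (-0.74) downward.

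At 72 h 14 pathway genes rose and 11 fell of 51 tested with BRD+LoAA (background 8.86% higher and 10.5% lower), 17 rose and 8 fell with BRD (9.71 and 11.6%), and 14 rose and 10 fell with JNJ (8.57 and 9.92%), each against Activin. FN1 (fibronectin) had 2228 and 2688 CPM in BRD endoderm, against 429 and 448 in Activin endoderm (2.47 ± 0.18). FBN2 had 548 and 458 CPM, against 57.8 and 92.3 (2.74 ± 0.22). TIMP3, a matrix-bound protease inhibitor, had 16.3 and 23.98 CPM, against 162 and 169 (-3.04 ± 0.21). The groups did not overlap for these 3 genes. P3H2, which modifies type IV chains, had 248 and 289 CPM, against 623 and 734 (-1.35 ± 0.14). MRC2, an endocytic collagen receptor, had 150.2 and 120.3 CPM, against 48.01 and 53.5 (1.41 ± 0.15), and ADAMTS3, a procollagen N-proteinase, 32.3 and 30.1 CPM, against 5.51 and 7.25 (2.30 ± 0.26).

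Single cells were read as 3 libraries with 1 library per group, so no test was made, and intervals cover counting error only. Filtering on 500 or more genes and 10% or less mitochondrial UMIs kept 5632 of 6266 barcodes as cells for mesoderm, 4511 of 6321 for definitive endoderm and 4193 of 6244 for primitive streak, with median depths of 7873, 7680 and 21152 UMIs. Doublets were neither called nor removed, and the library pairs shared 50 to 56 barcodes. SOX17 had 0 UMIs in the mesoderm and primitive streak libraries, and in the endoderm library 6 of 6 endoderm markers were detected. The members together took 481 UMI CPM (UMIs per M UMIs; 95% interval 474 to 487) in mesoderm, 820 (811 to 830) in definitive endoderm and 347 (343 to 351) in primitive streak cells.

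COL5A2 was the member with the highest level in the endoderm library, 163 UMI CPM (159 to 168), against 6.59 in mesoderm and 4.83 in primitive streak cells. Its ratio of endoderm to primitive streak was 33.8 (95% interval 30.5 to 37.7), and of mesoderm to endoderm 0.0403. After each cell was thinned to 2000 UMIs, 92 of 5539 mesoderm cells (1.66%), 833 of 3685 endoderm cells (22.6%) and 34 of 3416 primitive streak cells (0.995%) had a COL5A2 UMI; without thinning the shares were 4.79, 46.1 and 7.75%. Within the endoderm library cells with a SOX17 UMI had 168 UMI CPM of COL5A2 and the others 157. Within the primitive streak library cells with both a TBXT and an EOMES UMI had 7.78 (6.75 to 8.93), cells with a SOX2 UMI but neither of these had 1.94 (1.28 to 2.82), and the rest 3.83. Within the mesoderm library cells with a TBX6 UMI had 10.2 (8.85 to 11.7), cells with a TBXT but no TBX6 UMI had 3.53 (2.79 to 4.39) and the rest 5.90.

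COL1A2 was highest in mesoderm, with 69.1 UMI CPM in mesoderm, 18.9 in definitive endoderm and 15.0 in primitive streak cells, a mesoderm to endoderm ratio of 3.65. COL6A1 had 55.8 in mesoderm, 152 in endoderm and 33.3 in primitive streak cells, and COL6A2 had 13.95, 71.1 and 15.7. COL1A1 had 10.3, 32.97 and 8.39 in the same order, so the chains of type I were not ranked alike. SERPINH1 was near level, with 135 in mesoderm, 141 in endoderm and 159 in primitive streak cells. COL4A2 had 38.1, 35.4 and 13.6, and its mesoderm to endoderm ratio of 1.08 had an interval that reached 1 (0.999 to 1.16), while COL4A1 had 19.0, 24.5 and 9.69. In the endoderm library COL4A2 had 43.9 UMI CPM in cells with a SOX17 UMI and 23.9 in the others. COL18A1 had 39.6, 22.5 and 28.3 and COL27A1 had 10.1, 24.3 and 6.76. LOX was low throughout, with 2, 141 and 3 UMIs in all, or 0.0443, 4.17 and 0.0389 UMI CPM.

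**Figure D5:**
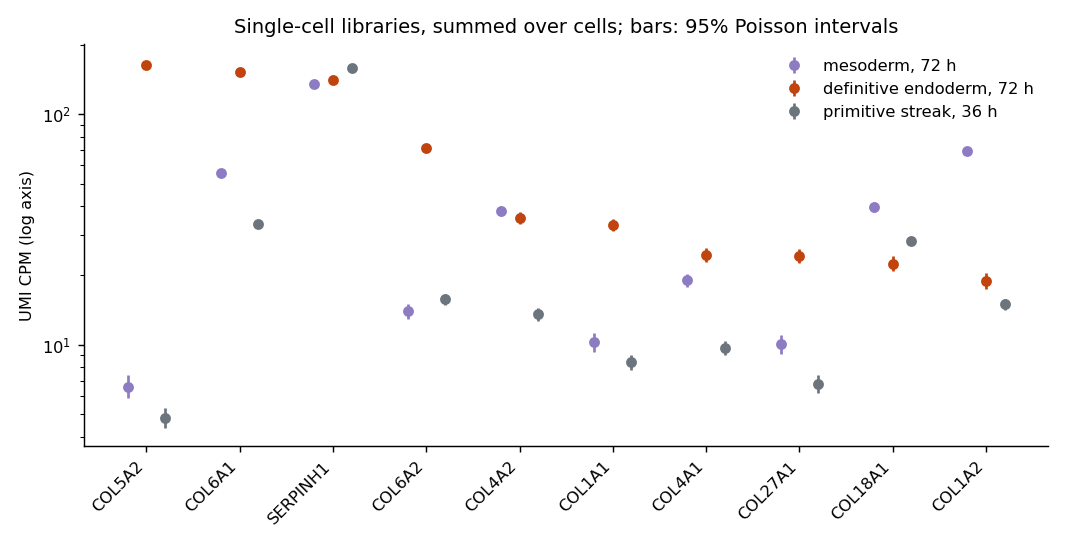
UMI CPM of the 10 members that reached 20 in at least 1 single-cell library, in mesoderm, definitive endoderm and primitive streak cells, with exact Poisson intervals that cover counting error only. COL5A2 reaches 163 in definitive endoderm and COL1A2 is highest in mesoderm.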

How the data were processed

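The bulk table deposited by the authors holds expected counts for 16103 genes in 30 libraries. Their single-cell files hold UMI counts per gene and barcode, and the file headers name Cell Ranger 3.0.2. Per the submitters' processing notes, Salmon 1.4.0, limma 3.48.1, edgeR 3.34.0 and Seurat 4.0.2 were used on build GRCh38, with no role given. Libraries were stranded total RNA per the labels; whether counting used strand is not given in the sources used here. A matrix that aggregates the single-cell libraries was not used.

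Before testing, each expected count was rounded to a whole number. The tests used edgeR 4.0.16 in R 4.3.3 (TMM scaling, filterByExpr, quasi-likelihood F-test, two-sided, Benjamini-Hochberg over all genes tested, false discovery rate 0.05), in 1 fit per time and in joint fits for comparisons of times, which left 6 (6 h), 5 (24 h) and 4 (72 h) residual degrees of freedom. SE was derived as the log2 change over the square root of F. Levels are TMM-scaled CPM, and per-kilobase levels use merged exon length of the GRCh38 annotation. Group sizes of 2 limit precision. Tested on simulated data, 2-fold changes were recovered at 73% and 4-fold ones at 92% for AA+CHIR against CHIR at 6 h. The rates were 50 and 60% for BRD+CHIR against CHIR at 24 h, and 57 and 93% for BRD against Activin at 72 h. Of the calls made, 6.78, 9.84 and 7.98% were false, more than the set false discovery rate of 0.05. The simulation held only genes above a minimum mean count, so these rates do not cover members at low counts. DESeq2 1.42.0, RLE scaling, no filter, a replicate block, 1 fit over all libraries and leaving out each library were alternatives. Single cells were summed per library in Python 3.11.15 (numpy 2.4.6, pandas 2.3.3, scipy 1.17.1), with exact intervals; figures used matplotlib 3.10.9. Intervals at 95% cover counting error only.

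Members and gene lists were chosen with earlier results of these data known. Values in every library are given for COL5A2 and for members called with at least 5 CPM and no overlap between groups, at most 12 per comparison by p (in comparisons of times, for the leading ones); members called below 5 CPM are named only.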

Additional observations from a re-analysis of the deposited data

Results flagged for a closer look

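Effects of 1 contrast that differed between times or treatments by an edgeR test of the difference itself (Benjamini-Hochberg adjusted, log2 scale) were the following. The Activin A effect at 24 h minus that at 6 h was 1.33 for COL5A2, 1.32 for COL5A1 and -1.26 for COL14A1. The 24 h minus 6 h change with BRD+CHIR minus that with BRD alone was 2.19 for COL6A1, 1.76 for COL5A1, 1.63 for COL6A2, 1.45 for COL5A2, 1.399 for COL1A2, 1.39 for COL14A1, 0.98 for COL27A1 and 0.78 for COL4A1, and -0.82 for SERPINH1, -0.93 for LOXL2 and -3.09 for COL9A1; COL27A1 lost its call without 6 h BRD+CHIR replicate 2, 6 h BRD replicate 1 or 24 h BRD replicate 1 (edgeR adjusted p up to 0.0659). BRD and BRD+CHIR at 6 h and 24 h come from different title number series, and this cannot be told apart from CHIR. The BRD minus Activin A difference at 72 h minus that at 24 h was -3.31 for COL5A2, and 3.31 for COL9A2, 2.84 for COL4A6, 2.71 for COL14A1, 2.51 for COL13A1, 1.95 for COL1A2, 1.84 for COL11A1, 1.82 for COL5A1, 1.66 for COL4A5, 1.24 for COL1A1 and 0.89 for COL18A1. COL14A1 lost this call in 5 of 8 fits with 1 library left out (without 24 h AA+CHIR replicate 2, 72 h Activin replicate 2, 24 h BRD+CHIR replicate 1 or 2, or 72 h BRD replicate 2; edgeR adjusted p up to 0.183). COL5A2 was thus lower with BRD than with Activin A by more at 72 h than at 24 h. COL4A6 was not called between BRD+CHIR and AA+CHIR at 24 h, where it had 22.8 and 23.4 CPM, against 30.7 and 36.3. At 72 h it was higher in BRD than in Activin endoderm. The tests of BRD with and without CHIR and of BRD against Activin A over time were added after the data had been seen.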

How the results depend on the processing

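Each count of members called by edgeR was recomputed with RLE scaling, no filter, DESeq2, a replicate block, 1 fit over all bulk libraries and each library left out. Most counts stayed within 1.5 times the value reported. DESeq2 called 1 member for JNJ+CHIR against CHIR at 24 h, 1 for BRD+CHIR against JNJ+CHIR at 24 h and 5 for the Activin A effect at 24 h minus 6 h. The fit over all libraries called 1 for JNJ+CHIR against CHIR and 11 for JNJ+CHIR against AA+CHIR at 24 h. The cause was not tested. Of single results for named members, 248 with DESeq2 and 243 with the fit over all libraries kept their direction and side of the threshold. With RLE scaling 251 did so, with no filter 249 and with the replicate block 247. In that order of settings 3, 8, 1, 3 and 5 lost the call. DESeq2 and the fit over all libraries each added 1. Calls were lost more often with 1 library left out, as given with the results above.

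Replicate numbers were shared by name only: deviations of same-numbered libraries correlated at -0.0856 to 0.067 at 6 h, -0.0464 to 0.0413 at 24 h and -0.254 to 0.254 at 72 h. With the replicate number as a block the counts were 17 for JNJ against Activin at 72 h, 18 for AA+CHIR at 24 h against 6 h, 22 for BRD at 72 h against 24 h and 12 for the BRD change over time with minus without CHIR; the other counts were as reported.

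With 1 library left out, the counts ran from 3 to 5 for AA+CHIR against CHIR, 4 to 5 for BRD+CHIR against AA+CHIR, 5 to 5 for JNJ+CHIR against AA+CHIR and 13 to 15 for BRD+CHIR against BRD at 24 h. At 72 h they ran from 13 to 16 for BRD+LoAA, 12 to 16 for BRD and 13 to 15 for JNJ against Activin. For 24 h against 6 h they ran from 18 to 20 (BRD+CHIR), 15 to 23 (JNJ+CHIR), 14 to 17 (AA+CHIR), 1 to 6 (BRD) and 16 to 20 (CHIR); for 72 h against 24 h from 17 to 20 (BRD), 15 to 18 (JNJ) and 17 to 22 (Activin A). The tests of a difference gave 1 to 3 (Activin A effect over time), 10 to 13 (BRD over time with and without CHIR) and 10 to 13 (BRD against Activin A over time). Counts of 0 stayed at 0. A lone library in a group was assumed to vary like the other groups. The log2 change of COL5A2 for BRD+CHIR against JNJ+CHIR at 6 h, not called, was -0.0472 without BRD+CHIR replicate 1 and -0.0746 without JNJ+CHIR replicate 1 and ran from -0.0746 to 0.19 with 1 library left out, and that for BRD against JNJ at 72 h ran from -0.10 (without BRD replicate 2) to 0.44.

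The summed single-cell member level was 495 UMI CPM in mesoderm over all barcodes. It was 846 in endoderm over all barcodes and 839 with at least 1000 genes per cell. In primitive streak cells it was 378 over all barcodes and 340.1 with at most 5% mitochondrial UMIs. Groups of 2 libraries limit what can be called: small changes, and members at a few counts such as LOX in Activin endoderm, lie at the edge of this depth.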

Other observations

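COL5A2 had 4.83 UMI CPM in the 36 h primitive streak library and a mean of 159 CPM in bulk AA+CHIR cells at 24 h. The assays differ (3' tags of single cells against total RNA of unsorted cells), and the difference was not tested. LOX had 141 UMIs among 33.8 M in the single-cell endoderm library made with Activin A. The bulk Activin endoderm libraries had 2 and 8 counts of it among 7.41 and 4.57 M. Depth and assay both differ here, and this difference was not tested either.

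After thinning, 29 of 3685 endoderm cells had UMIs of both COL5A1 and COL5A2, near the 27.1 that independence of the genes would give. Both COL4A1 and COL4A2 were found in 18 cells, where independence would give 9.56. These are counts within 1 library.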
